A study of Mus musculus with 8 samples.

Results

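The genes described here encode the chains of the fibre-forming collagens I, III and V and of the fibril-associated collagens XII and XIV, namely Col1a1, Col1a2, Col3a1, Col5a1, Col5a2, Col12a1 and Col14a1. They were chosen by gene name, and each of the 7 names matched 1 of the 31053 genes in the deposited count matrices. Their levels are given in cell classes of the mouse intervertebral disc at 8 weeks and at 10 days after birth (P10).

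Both groups were Tagln-CreERt2;R26tdTomato mice, in which Tagln regulatory sequence drives a tamoxifen-dependent Cre and recombined cells express tdTomato, and both received tamoxifen at postnatal day 5. The 8-week and the P10 groups each hold 4 labelled samples of whole discs from the lumbar spine and the tail, freed from muscle and vessels as far as possible and digested with enzymes into single cells. The cells of an age carry 1 barcode suffix and no map to the 4 samples, so each age was 1 library, and age and library cannot be told apart. No test between ages was possible, and every interval below is a 95% interval that covers counting error alone.

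Fibrillar collagens are triple helices that assemble into fibrils outside the cell. Collagen I, built of a pair of chains from Col1a1 and 1 from Col1a2, is the main fibre of tendon, bone and the outer annulus fibrosus of the disc, while collagen III accompanies it in looser connective tissue and vessel walls. Collagen V sits inside collagen I fibrils and limits their width, and collagens XII and XIV lie on the fibril surface. Cartilage and the gel-like centre of the disc, or nucleus pulposus (NP), which descends from the notochord, are built mainly on collagen II.

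On the mouse build GRCm38 with GENCODE annotation, Col1a1 lies on chromosome 11 at 94936224 to 94953042 (plus strand) and Col1a2 on chromosome 6 at 4504814 to 4541544 (plus). Col3a1 lies on chromosome 1 at 45311538 to 45349706 (plus), and Col5a2 lies 24614 bases away at 45374321 to 45503282 on the minus strand, with 0 annotated genes between them. Col5a1 lies on chromosome 2 at 27886425 to 28039514 (plus), Col12a1 on chromosome 9 at 79598991 to 79718831 (minus) and Col14a1 on chromosome 15 at 55307750 to 55520803 (plus). Col5a1, Col12a1 and Col14a1 overlap annotated genes on the opposite strand. Col1a2, Col3a1 and Col5a2 overlap other annotated genes (Gm43921, Gm47302 and Gm38211) on their own strand. Reads could be shared with these whatever the strand setting, if they are in the reference used for counting, which was not checked. Whether counting used the strand is not given in the sources used here, so reads of the opposite-strand partners cannot be told apart.

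The 250 bases before the RefSeq transcription start (GRCm38.p6) are shown for Col1a2, Col3a1 and Col5a1. These are the 3 of the 7 members with a promoter sequence in the reference used here. Capitals mark a CCAAT or TATAAA match on either strand, and the coordinates are chr6:4505368-4505617, chr1:45311288-45311537 and chr2:27886175-27886424, all on the plus strand. The RefSeq start of Col1a2 lies inside the longer GENCODE gene.
Col1a2: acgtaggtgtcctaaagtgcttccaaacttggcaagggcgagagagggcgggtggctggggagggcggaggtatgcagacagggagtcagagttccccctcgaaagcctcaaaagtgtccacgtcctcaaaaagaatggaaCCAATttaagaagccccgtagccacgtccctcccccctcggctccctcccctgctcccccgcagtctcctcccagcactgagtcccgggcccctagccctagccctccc
Col3a1: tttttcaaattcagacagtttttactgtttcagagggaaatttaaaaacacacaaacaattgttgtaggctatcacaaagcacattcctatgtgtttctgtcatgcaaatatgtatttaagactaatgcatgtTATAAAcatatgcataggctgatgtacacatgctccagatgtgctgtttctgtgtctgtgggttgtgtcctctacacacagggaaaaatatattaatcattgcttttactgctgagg
Col5a1: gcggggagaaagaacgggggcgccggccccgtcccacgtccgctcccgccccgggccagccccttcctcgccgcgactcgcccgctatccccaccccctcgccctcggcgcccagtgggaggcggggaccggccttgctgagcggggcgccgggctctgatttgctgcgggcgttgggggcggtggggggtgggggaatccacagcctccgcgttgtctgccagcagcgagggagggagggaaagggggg
CCAAT stands in the Col1a2 window from -109 to -105 relative to the start, and 33.8% of the 32851 promoters of this length hold it. TATAAA stands in the Col3a1 window from -117 to -112, and 12.4% of promoters hold it. The Col5a1 window held neither. The GC box GGGCGG (32.7% of promoters) has 2 matches each in the Col5a1 and Col1a2 windows, read on both strands. In the Col5a1 window 76.4% of the bases are G or C, against 62% for Col1a2 and 35.2% for Col3a1. A match is a run of letters and no evidence of binding. Col1a1, Col5a2, Col12a1 and Col14a1 had no such sequence and are named only.

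After filtering, 6342 cells of 8 weeks (median 14683.5 unique molecular identifiers, UMIs) and 6999 cells of P10 (median 18300 UMIs) were kept. They fell into 28 clusters, clustered without any collagen gene, and 11 classes were named from marker lists that hold none of the 7 genes. A class name ends in "-like" because it rests on markers alone. At 8 weeks and P10, 10 and 8 of the 10 tendon fibroblast markers were at least 2-fold higher in the class named after them than in the other cells. Of the 11 NP markers, 9 were so in NP-like cells at each age. Noto was at 0 CPM in NP-like cells at both ages. Foxa2 was lower there than in the other cells (2.27 CPM against 19.5 CPM at 8 weeks, 6.61 CPM against 22.7 CPM at P10). Names rest on less in cartilage: 7 and 8 of 13 chondrocyte markers and 7 of 10 hypertrophic chondrocyte markers at each age were at least 2-fold higher. At 8 weeks the hypertrophic markers Ibsp (834 CPM against 2766 CPM) and Spp1 (971 CPM against 18525 CPM) were lower in the class than in the other cells. Clusters 5 (689 cells, led by Cilp, Vcan, Grem1, Dmkn and Tnr) and 9 (243 cells, led by Ibsp, Myoc, Cxcl13, AW112010 and Lcn2) held cells of 8 weeks alone and stayed unnamed, as did cluster 21 (2 cells of 8 weeks and 56 of P10, led by Cdh15, Des, Msc, Fgfr4 and Ttn). In each library, cells that also carried markers of another class were marked: 77 of 2305 NP-like cells of 8 weeks and 41 of 306 of P10, 22 of 749 and 448 of 4695 chondrocyte-like cells, and 30 of 1282 and 16 of 875 tendon fibroblast-like cells. Doublet calling did not work at P10, where it called 0 cells. Levels are UMIs of a class per 1000000 UMIs of the same cells (CPM), and they are compared only within a gene.

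The 7 genes took 2.72% of all UMIs at 8 weeks and 2.28% at P10. Tendon fibroblast-like cells held most of these UMIs, 80.1% at 8 weeks and 74.7% at P10, as 20.2% and 12.5% of the cells. Of the members, 6, all but Col12a1, were at least 2-fold higher in this class than in all other kept cells at both ages: 6 of 7 at 8 weeks, where 4.35% of all genes were, and 6 of 7 at P10, where 6.37% were. The classes were formed from the same cells, so these counts are a description. The second holder was osteoblast-like at 8 weeks (10.8% of member UMIs in 94 cells) and chondrocyte-like at P10 (16.6% in 4695 cells). Of these 4695 cells, 448 carried markers of another class. The class had 179967 UMIs of Col1a1 with them and 90003 without them.

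**Figure D1:**
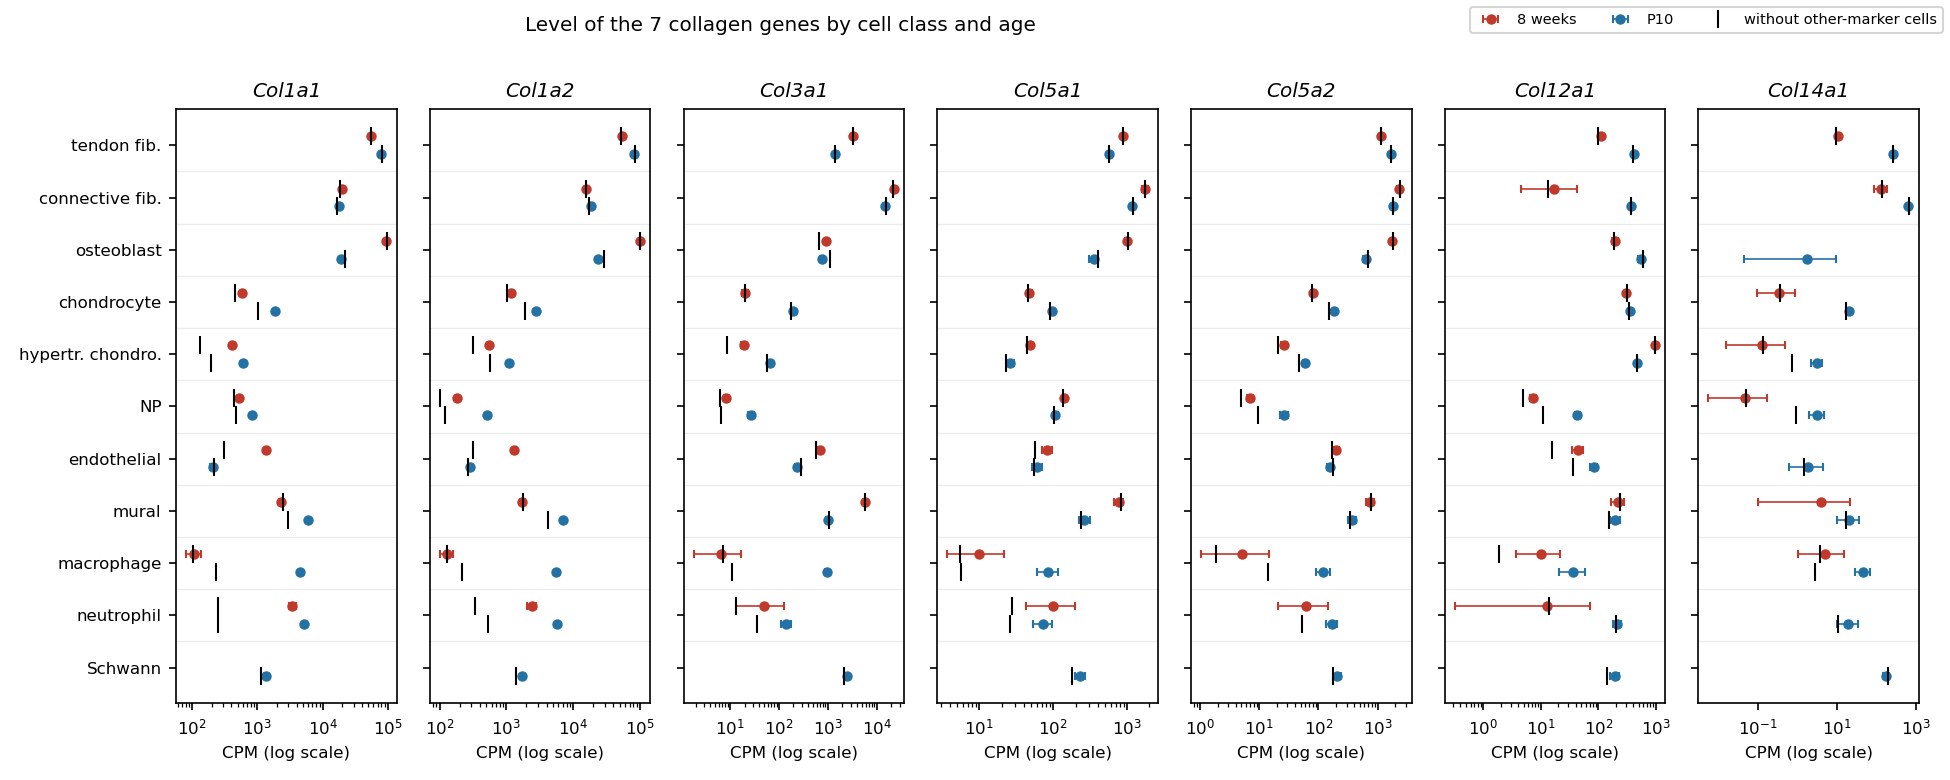
CPM (log axis) of each gene by cell class, with 8 weeks in red above P10 in blue; bars are exact Poisson 95% intervals, and black ticks give the level without cells carrying markers of another class. Points are missing where a class has under 20 cells or 0 UMIs. Collagen I is highest in osteoblast-like and tendon fibroblast-like cells, Col3a1 and Col14a1 in connective fibroblast-like cells, and Col12a1 at 8 weeks in hypertrophic chondrocyte-like cells.

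Within each age, both chains of collagen I followed the same order among their 3 highest classes. Col1a1 stood at 93692 CPM in osteoblast-like cells of 8 weeks (bone-forming cells, 94 cells) and 19203 CPM in those of P10 (29 cells). In the tendon fibroblast-like class it stood at 55181 CPM (55081 to 55282) at 8 weeks and 79493 CPM (79349 to 79637) at P10, and in connective fibroblast-like cells at 19729 and 17639 CPM. Osteoblast-like cells therefore led at 8 weeks and tendon fibroblast-like cells at P10. Col1a2 gave 98687 and 23428 CPM in osteoblast-like, 53001 and 81665 CPM in tendon fibroblast-like, and 15742 and 18680.5 CPM in connective fibroblast-like cells of 8 weeks and P10. Unnamed cluster 5 of 8 weeks came next, with 5175 CPM of Col1a1 and 8836 CPM of Col1a2.

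In chondrocyte-like cells, most Col1a1 UMIs lay in few cells. The gene stood at 581 CPM at 8 weeks and 1831 CPM at P10, and at 454 and 1015 CPM without cells carrying other markers. With all cells, the top 10% held 88.7% and 95.1% of its UMIs, against 29.4% and 21.0% among tendon fibroblast-like cells. The median cell had 1 and 2 UMIs of Col1a1 in the chondrocyte-like class and 704 and 1244 in the tendon fibroblast-like class. Among the P10 chondrocyte-like clusters, Col1a1 ran from 129 CPM in cluster 15 (1271 cells) to 8405 CPM in cluster 23 (305 cells), which has Gdf5, a joint-forming signal, among its leading genes and was singled out after its values were seen. Neutrophil-like cells should lack collagen and serve as a control for background. They had a median of 1 UMI of Col1a1 at both ages. A UMI was in 60.7% and 67.9% of these cells, at median depths of 1911.5 and 3263 UMIs. The search for other markers used 0 chondrocyte markers in this class, so it could not mark cells for carrying chondrocyte RNA. Without marked cells, Col12a1 stood at 202 CPM in neutrophil-like cells of P10 (211 CPM with all cells). This control can therefore lie above background.

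Col1a1 was low in NP-like cells, and at equal depth its share of cells at P10 was close to that of macrophage-like cells. The CPM of Col1a1 in NP-like cells was 531 at 8 weeks and 835 at P10, with a median of 5 and 6 UMIs per cell and a UMI in 90.4% and 93.1% of cells at median depths of 15460 and 17598 UMIs. With each cell thinned to 2000 UMIs, leaving out 97 and 9 shallower NP-like, 14 and 24 neutrophil-like and 6 and 9 macrophage-like cells, it was in 52.3% (50.2 to 54.4) and 52.9% (47.0 to 58.7) of NP-like cells. The neutrophil-like class then had 42.9% (17.7 to 71.1) and 34.1% (24.2 to 45.2), and the macrophage-like class 15.5% (8.00 to 26.0) and 51.7% (38.2 to 65.0). Without cells carrying markers of another class, Col1a1 stood at 435 and 471 CPM in NP-like cells, against 246 and 247 CPM in neutrophil-like and 102 and 232 CPM in macrophage-like cells. For Col1a2 the same count gave 101 and 120.2 CPM in NP-like cells. That lay below the 342 and 537 CPM of neutrophil-like and the 131 and 218 CPM of macrophage-like cells, which are shallower. With all cells thinned as above, a Col1a2 UMI was in 21.1% (19.4 to 22.8) and 30.6% (25.4 to 36.2) of NP-like cells. Macrophage-like cells then had 19.7% (11.2 to 30.9) and 34.5% (22.5 to 48.1), and neutrophil-like cells 50% and 47.1%. Col1a2 in NP-like cells is therefore read as background. Hypertrophic chondrocyte-like cells, which express collagen X before cartilage turns to bone, had 129.7 and 193 CPM of Col1a1 and 317 and 567 CPM of Col1a2. Except for Col1a2 at P10, which was close to it, these values lay below the neutrophil-like level. Median depths were 22215 and 36173 UMIs in hypertrophic cells and 1911.5 and 3263 in neutrophil-like cells, so these CPM are not at equal depth. Without cells carrying other markers, the median hypertrophic cell had 1 and 3 UMIs of Col1a1 and 3 and 14 of Col1a2. The median neutrophil-like cell had 1 of each at both ages. At equal depth a Col1a2 UMI was in 31.5% and 57.5% of hypertrophic cells, at both ages a larger share than in macrophage-like cells. Whether collagen I in hypertrophic cells is above background was therefore not decided.

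Col3a1 was highest in connective fibroblast-like cells, at 22140 CPM in 22 cells of 8 weeks and 14915 CPM in 267 cells of P10. Mural-like cells (vessel wall) followed at 8 weeks with 5653 CPM (1013 CPM at P10), then tendon fibroblast-like cells with 3252 CPM (1397 CPM at P10). At P10, Schwann-like cells (2460 CPM) and cluster 21 (2243 CPM) stood above tendon fibroblast-like cells, and their intervals overlapped. Chondrocyte-like cells gave 20.3 and 193 CPM and NP-like cells 8.55 and 27.2 CPM at 8 weeks and P10. The library's Col3a1 was held by different classes: tendon fibroblast-like cells held 82.2% of its UMIs at 8 weeks and 21.6% at P10, and connective fibroblast-like cells 6.34% and 51.8%. The class shares of cells differ between the libraries, so these shares depend on both cell numbers and level.

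The chains of collagen V were highest in connective fibroblast-like cells at both ages, Col5a1 with 1724 and 1163 CPM and Col5a2 with 2339 and 1803 CPM at 8 weeks and P10. In osteoblast-like cells Col5a1 stood at 994 and 354 CPM, and in tendon fibroblast-like cells at 869.6 and 563 CPM. They differed in NP-like cells. Col5a1 stood there at 140.2 CPM (136.8 to 143.8) at 8 weeks and 107 CPM (99.3 to 115) at P10, above chondrocyte-like cells with 47.6 and 95.5 CPM, and NP-like cells held 19.1% of the library's Col5a1 UMIs at 8 weeks and 3.11% at P10. Without cells carrying other markers, Col5a1 stood at 137 and 102 CPM in NP-like cells, against 27.4 and 25.7 CPM in neutrophil-like and 5.55 and 5.65 CPM in macrophage-like cells. Thinned as above, 23.8% and 18.2% of NP-like cells had a Col5a1 UMI (72.8% and 72.2% unthinned). Neutrophil-like cells had 14.3% (1.78 to 42.8) and 4.71% (10.7% and 11.9% unthinned), and macrophage-like cells 2.82% and 5.17% (6.49% and 7.46% unthinned). Col5a2 was in 0.589% and 4.04% of thinned NP-like cells (8.03% and 17.6% unthinned). Neutrophil-like cells had 7.14% (0.18 to 33.9, of 14 cells) and 8.24% (3.57% and 11.01% unthinned). Macrophage-like cells had 1.41% and 5.17% (2.60% and 10.4% unthinned, median depths 6938 and 5691 UMIs). Without cells carrying other markers, Col5a2 stood at 4.83 and 9.43 CPM in NP-like cells. Neutrophil-like cells then had 0 and 53.2 CPM and macrophage-like cells 1.85 and 14.1 CPM. Col5a2 in NP-like cells is read as background at P10. At 8 weeks it was very low, and the few UMIs of the control classes do not set it apart from background.

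Col12a1 and Col14a1, both surface collagens of the fibril, had unlike patterns. Col12a1 was highest at 8 weeks in hypertrophic chondrocyte-like cells, at 949 CPM (934 to 964), and these 691 cells held 68.2% of the library's Col12a1 UMIs. Chondrocyte-like cells followed with 306 CPM, mural-like with 218 CPM and osteoblast-like with 192 CPM, the intervals of the last 2 overlapping. At P10, osteoblast-like (541 CPM) and hypertrophic cells (476 CPM) came first with overlapping intervals, then tendon fibroblast-like (411 CPM), connective fibroblast-like (370.4 CPM) and chondrocyte-like cells (350.2 CPM), the last pair overlapping. Chondrocyte-like cells held 70.1% of its UMIs at P10. NP-like cells had 7.23 CPM at 8 weeks and 43.2 CPM at P10.

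Col14a1 was close to absent from the 8-week library, with 262 UMIs against 7990 at P10. Connective fibroblast-like cells led at both ages with 126 CPM (30 UMIs) at 8 weeks and 627 CPM at P10, and tendon fibroblast-like cells followed with 10.5 and 254 CPM. Schwann-like cells gave 176 CPM at P10. Among tendon fibroblast-like cells, 6.63% had a Col14a1 UMI at 8 weeks and 89.4% at P10, at median depths of 14615 and 15203 UMIs. Neutrophil-like cells had one in 0 of 28 cells, which allows a share of cells with a UMI of up to 10.7% (3 cells of the 28), and in 5.50% of cells.

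UMI ratios of paired chains differed between classes. UMIs count molecules and were not divided by length, so a ratio of 2 genes is compared only between classes. In tendon fibroblast-like cells there were 1.04 UMIs of Col1a1 per UMI of Col1a2 at 8 weeks and 0.973 at P10. NP-like cells had 2.90 (2.83 to 2.98) and 1.63 (1.57 to 1.71), and without cells carrying other markers 4.29 and 3.92. Chondrocyte-like cells had 0.497 and 0.649 (0.440 and 0.533 without such cells), and the hypertrophic class had 0.732 and 0.543 (0.410 and 0.340). Over all kept cells the ratio was 1.01 at 8 weeks and 0.910 at P10. NP-like cells stood above this whole-library ratio and both cartilage classes below it at both ages. Col1a2 in NP-like cells is read as background, and collagen I in hypertrophic cells was not set apart from it. The ratios of both classes therefore describe the UMIs found and are not read as ratios of chains made by the cells.

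For collagen V, the ratio of Col5a1 to Col5a2 was 20.1 (17.9 to 22.6) in NP-like cells of 8 weeks and 4.11 (3.49 to 4.88) in those of P10, and 28.3 and 10.8 without cells carrying other markers. The Col5a2 counts behind it were 307 and 177 UMIs, which are read as at or near background. The ratio therefore has no value as one of chains made by these cells. In tendon fibroblast-like cells it was 0.752 and 0.337, and in connective fibroblast-like cells 0.737 and 0.645. In the hypertrophic class it was 1.83 at 8 weeks and 0.448 at P10, and the whole libraries 0.941 and 0.459.

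**Figure D2:**
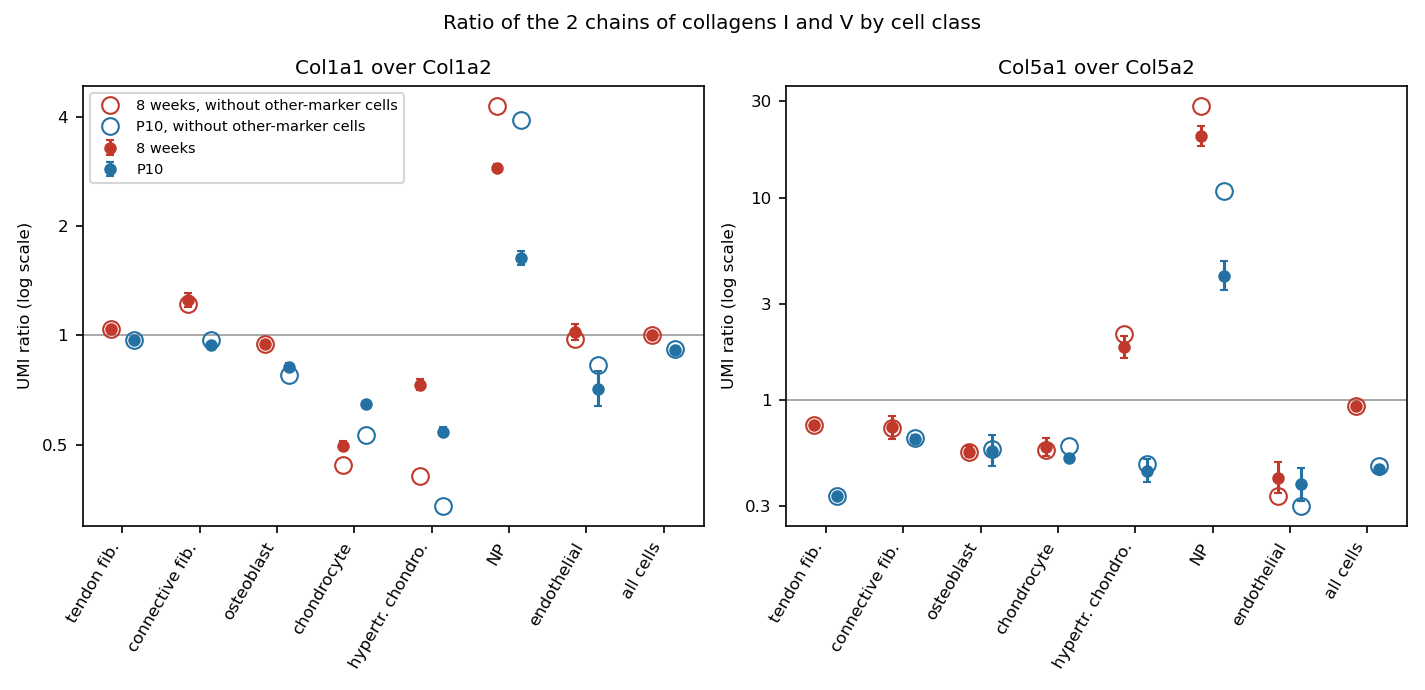
UMIs of Col1a1 per UMI of Col1a2 (left) and of Col5a1 per UMI of Col5a2 (right) on log axes by cell class, with 8 weeks in red left of P10 in blue; filled points carry exact 95% counting intervals, and open circles leave out cells with markers of another class. NP-like cells sit highest in both panels, over a Col1a2 and a Col5a2 count read as at or near background, and the cartilage classes sit below 1 on the left.

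Between ages, tendon fibroblast-like cells had lower collagen I, lower surface collagens and higher collagen III at 8 weeks. Of the 7 genes, 2 were at least 2-fold lower at 8 weeks, against 5.49% of 10075 genes, and 1 was at least 2-fold higher, against 17% of genes. The class consisted of clusters 1 and 6 and 2 further cells at 8 weeks and of cluster 24 at P10. The median log2 ratio of 8 weeks over P10 was -0.53 over the members and 0.26 over all genes. Log2 ratios of Col1a1 and Col1a2 were -0.53 and -0.62, that of Col5a2 -0.53 (1157 CPM at 8 weeks and 1672 CPM at P10), and that of Col5a1 0.63 (0.59 to 0.66). The chains of collagen V thus differed between ages in opposite directions.

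Col12a1 stood at 110.1 CPM in tendon fibroblast-like cells of 8 weeks and 411 CPM in those of P10, a log2 ratio of -1.90 (-1.97 to -1.83). For Col14a1, 10.5 CPM (219 UMIs) at 8 weeks and 254 CPM (3729 UMIs) at P10 gave -4.61 (-4.81 to -4.41). The 2 clusters of 8 weeks differed: cluster 1 had 165 CPM of Col12a1 and 18.2 CPM of Col14a1, and cluster 6 had 58.4 and 4.00 CPM, both below the P10 level. Their Col1a1 was 66244 and 46278 CPM.

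Col3a1 in this class had a log2 ratio of 1.22 (1.20 to 1.24), which is 0.96 above the median gene and ran from 0.75 to 1.61 over the alternatives, while its median over cells was nearly level. That median was 1300.0 CPM at 8 weeks and 1237 CPM at P10, while the lower and upper quartiles were 334 and 4265 CPM at 8 weeks and 826 and 1751 CPM at P10. The top 10% of cells held 50.3% of its UMIs at 8 weeks and 30.9% at P10. By contrast the Col1a1 median was 54998 CPM at 8 weeks and 85903 CPM at P10, and the Col12a1 median 37.6 and 398 CPM.

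**Figure D3:**
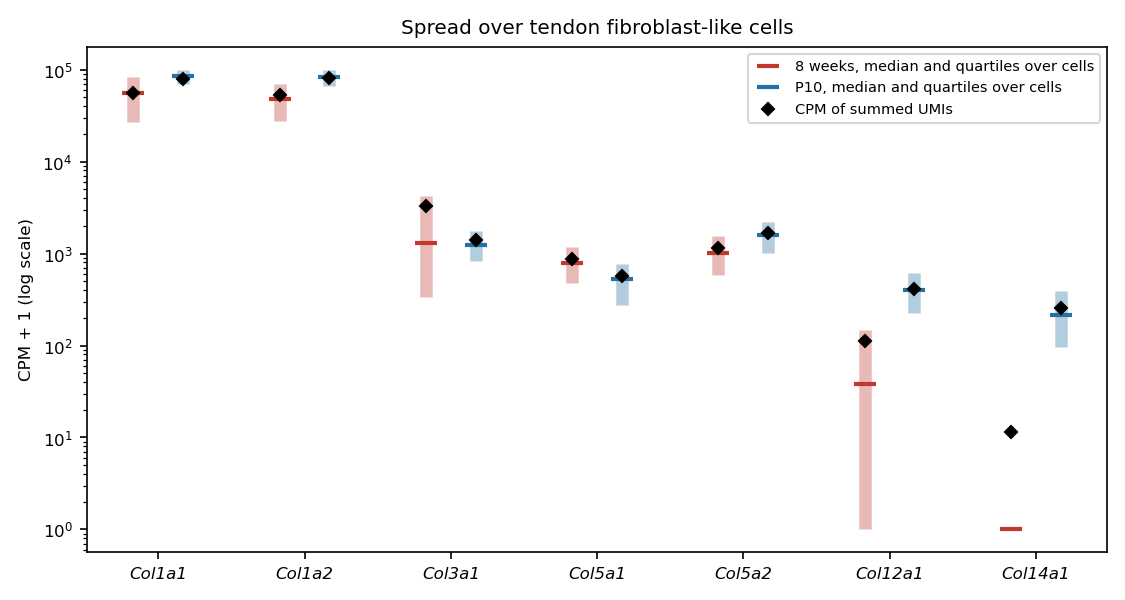
CPM + 1 (log axis) of the 7 genes over tendon fibroblast-like cells, with 8 weeks (1282 cells, red) left of P10 (875 cells, blue); dashes are medians over cells, bars reach from the lower to the upper quartile, and diamonds give the CPM of summed UMIs. The Col3a1 medians are nearly level while its 8-week bar is longer, and the Col14a1 median and quartiles of 8 weeks are at 0 (drawn at 1).

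Connective fibroblast-like cells (22 of 8 weeks, 267 of P10, cluster 20) kept 5 of the 7 genes within 2-fold, among them Col3a1 with a log2 ratio of 0.57 (0.53 to 0.61). Of the rest, 2 were at least 2-fold lower (12.8% of genes were) and 0 at least 2-fold higher (11.5% were). The lower ones were the surface collagens: Col14a1 with -2.31 (-2.88 to -1.79) and Col12a1 with 4 UMIs at 8 weeks (16.9 CPM) and 370.4 CPM at P10. Both surface collagens were therefore lower at 8 weeks in both fibroblast classes.

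Osteoblast-like cells had higher collagen I and V at 8 weeks: 4 of the 6 members with enough UMIs were at least 2-fold higher (8.26% of genes were) and 1 was at least 2-fold lower (16.4% were). The median gene had -0.31. Log2 ratios were 2.29 for Col1a1, 2.07 for Col1a2, 1.49 for Col5a1 and 1.51 for Col5a2, and -1.49 for Col12a1. The P10 side rests on 29 cells, 6 of which carried markers of another class, and without such cells Col1a1 gave 2.11, Col1a2 1.83, Col5a1 1.34, Col5a2 1.38 and Col12a1 -1.67. Col3a1 turned, with 0.27 with all cells and -0.72 (-0.88 to -0.56) without them. Thinned to 2000 UMIs per cell, Col5a1 gave 0.97 (149 and 26 UMIs), while Col1a1 gave 1.96, Col1a2 1.64, Col5a2 1.27 and Col12a1 -1.23. Among the markers of this class, Bglap stood at 45104 CPM at 8 weeks and 1049 CPM at P10, while Sp7 was nearly level (104 and 101 CPM). The counts of this class were not recomputed with the alternatives. Col14a1 had 0 UMIs in 94 cells of 8 weeks, which allows a share of cells with a UMI of up to 3.19% (3 cells of the 94), and 1 UMI at P10.

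In chondrocyte-like cells, 6 of 7 members were at least 2-fold lower at 8 weeks (6.15% of 12229 genes were) and 0 at least 2-fold higher (25.5% were). The class consisted mostly of clusters 3 (685 cells) and 14 (47 cells) at 8 weeks and of clusters 15, 18, 19, 23, 26 and 27 at P10. Col14a1 was at 4 UMIs (0.338 CPM) at 8 weeks and 19.9 CPM at P10, and Col3a1 had a log2 ratio of -3.25 (-3.44 to -3.07), which was -3.15 without cells carrying other markers. For Col1a1 the ratio was -1.66, for Col1a2 -1.27 and for Col5a2 -1.19, and Col5a1 (47.6 CPM at 8 weeks and 95.5 CPM at P10) was just past 2-fold. Without such cells Col1a1 gave -1.16, Col1a2 -0.88 and Col5a2 -0.93. Col12a1 had -0.20 (-0.25 to -0.15) over the summed UMIs, but a UMI in 48.1% of cells at 8 weeks and 93.4% at P10 (median depths 14443 and 19214 UMIs) and medians of 0 and 6 UMIs per cell. At 8 weeks the 47 cells of cluster 14, led by cell cycle genes, had 916 CPM and the 685 cells of cluster 3 had 202 CPM. Its direction turned with the clustering (1.41 at a coarser resolution). The median gene of this class had 0.44.

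Hypertrophic chondrocyte-like cells (cluster 0 at 8 weeks, cluster 16 at P10) had more Col12a1 at 8 weeks, 949 CPM against 476 CPM at P10, a log2 ratio just under 1 (0.996, with an interval of 0.95 to 1.04). Col3a1 (-1.75) and Col5a2 (-1.16) made up the 2 members at least 2-fold lower (5.05% of genes were), and 0 were at least 2-fold higher (23.2% were). These 3 values depended on how cells were clustered: with each library clustered on its own, Col12a1 gave -0.52, Col3a1 3.71 and Col5a2 3.73. The median gene had 0.37.

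NP-like cells came mostly from clusters 2, 4 and 8 at 8 weeks and from cluster 22 at P10. Of the 6 members with enough UMIs, 4 were at least 2-fold lower at 8 weeks (2.91% of genes were) and 0 at least 2-fold higher (15.2% were). That count did not hold without cells carrying markers of another class, where 1 was: Col1a2 gave -1.48 with all cells and -0.25 without them, Col3a1 -1.67 and -0.08 (-0.58 to 0.46), Col5a2 -1.90 and -0.97, and Col12a1 -2.58 and -1.18. Col1a1 gave -0.65 and -0.12. Without such cells Col3a1 stood at 6.33 CPM at 8 weeks and 6.71 CPM at P10. Neutrophil-like cells then had 13.7 and 36.0 CPM and macrophage-like cells 7.41 and 11.3 CPM. Col3a1, like Col1a2 and Col5a2, is thus at or near background in NP-like cells, and the age ratios of these genes compare such counts. Without such cells Col12a1 stood at 4.81 CPM (198 UMIs) and 10.9 CPM (60 UMIs). That lay below the 13.7 and 202 CPM of neutrophil-like and above the 1.85 and 0 CPM of macrophage-like cells. The controls differ, so whether Col12a1 in NP-like cells is above background was not decided. With a stricter doublet limit, Col1a2 turned to 0.44 and Col3a1 to 0.061. Col5a1 kept its direction, with 0.39 (0.28 to 0.50) and 0.42 (0.29 to 0.55), close to the median gene at 0.36. Col14a1 had 2 UMIs at 8 weeks and 21 at P10.

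In endothelial-like cells, 3 of 6 members with enough UMIs were at least 2-fold higher at 8 weeks (6.83% of genes were) and 0 at least 2-fold lower (2.81% were). The top 10% of the 127 cells held 91.2% of the Col1a1 UMIs of 8 weeks. Log2 ratios were 2.70 for Col1a1, 2.18 for Col1a2 and 1.56 for Col3a1. Leaving out the 11 cells of 8 weeks and 15 of P10 that carried other markers gave 0.48, 0.24 and 1.03 for these genes. That step used 0 mural markers in endothelial-like cells, so it could not mark cells for carrying mural RNA. The top 10% of cells held 84.5% of the Col3a1 UMIs of 8 weeks. The part of mural RNA in the Col3a1 ratio was not tested.

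**Figure D4:**
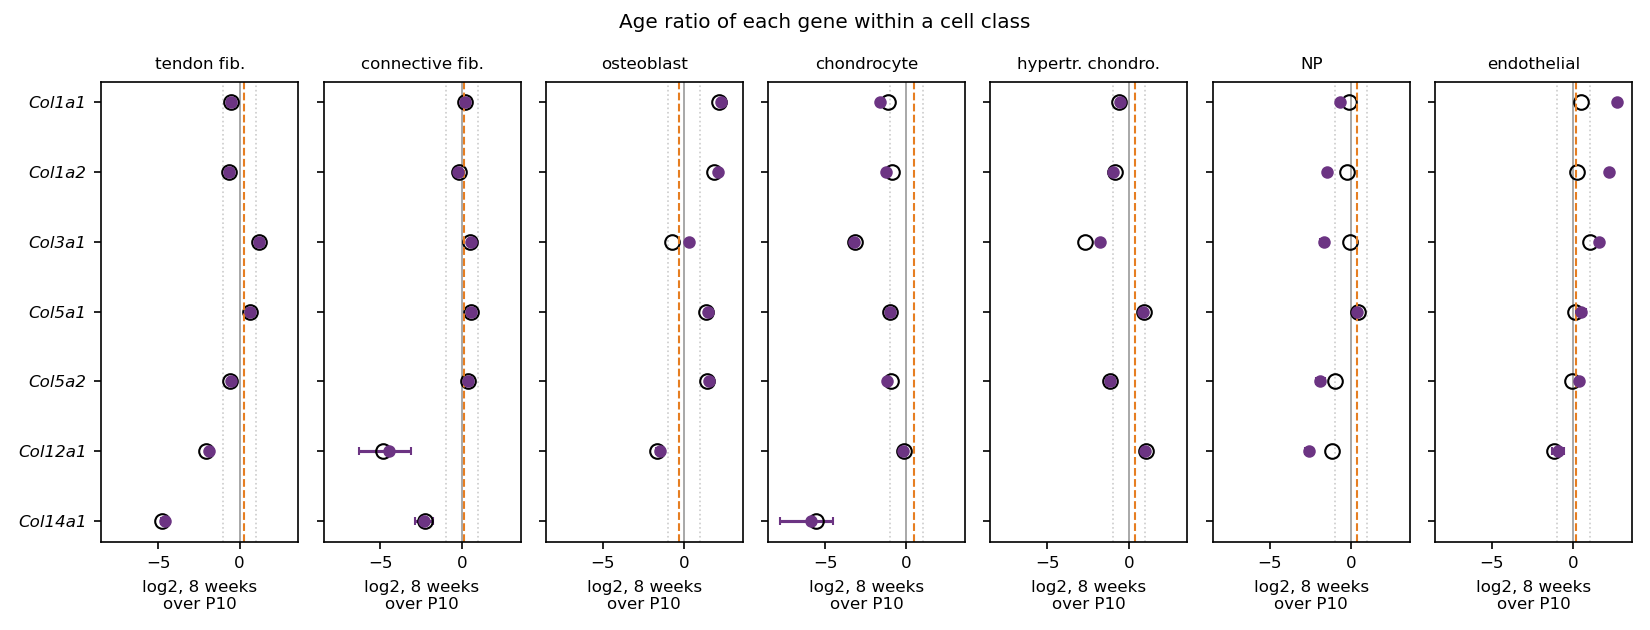
Log2 ratio of CPM at 8 weeks over P10 for each gene (rows) in 7 cell classes (panels); filled points have exact 95% counting intervals, open circles leave out cells with markers of another class, dotted lines mark 2-fold and the dashed orange line the median of all genes tested. Filled and open points lie together in tendon fibroblast-like cells and apart in NP-like and endothelial-like cells.

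Within NP-like cells, those with at least 10 UMIs of WPRE4, an exogenous sequence counted in the deposited files and taken here as a sign of the reporter, were set against the rest, a split chosen after the data were seen. At 8 weeks (1290 cells against 1015, median depths 15449 and 15487 UMIs) the log2 ratio was 0.29 for Col1a1, 0.64 for Col1a2 and -0.10 (-0.17 to -0.02) for Col5a1. At P10 (204 against 102 cells, 18356.5 and 14751 UMIs) it was 0.94 for Col1a1, 1.62 for Col1a2, 1.57 for Col3a1 and 1.16 for Col5a2, and -0.16 (-0.38 to 0.08) for Col5a1. Col12a1 gave 0.16 (-0.17 to 0.50) at 8 weeks and -0.34 (-0.69 to 0.03) at P10. Col1a2 thus differed more than Col1a1 with WPRE4 at both ages and Col5a1 least. Col1a2 and Col5a2 in NP-like cells are read above as at or near background, so their ratios are not read as levels of these cells. At P10, Col1a2 stood at 511 CPM over all NP-like cells and at 120.2 CPM without those carrying markers of another class. The part of such cells in these differences was not tested.

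Genes that build, process and read collagen fibres were taken from a list of 60, of which 58 had enough UMIs in tendon fibroblast-like cells. Scx, Mkx, Kera and Fmod are also on the marker list that named this class, so their ratios are not independent of the naming. Mmp13 is likewise on the hypertrophic chondrocyte marker list. There, 19 were at least 2-fold lower and 12 at least 2-fold higher at 8 weeks (5.49% and 17% of all genes were). Their median log2 ratio was -0.28, against 0.26 over all genes. In the chain folding and hydroxylation group, 7 of 13 were at least 2-fold lower and 0 higher, with a group median of -1.18. Serpinh1, the collagen chaperone HSP47, stood at 551 CPM at 8 weeks and 2149 CPM at P10 (-1.96). The prolyl hydroxylase subunits P4ha1 (-1.38) and P4hb (-1.18) and the folding enzyme Fkbp10 (-1.35) were lower too, while the lysyl hydroxylase Plod2 gave 0.91 and P4ha2 0.07.

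Other steps were mixed in these cells. For propeptide removal, 3 of 5 measured genes were at least 2-fold lower, with Pcolce, an enhancer of the C-proteinase, at 379 CPM at 8 weeks and 1801 CPM at P10 (-2.25), and its relative Pcolce2 was higher (1.40). Of the cross-linking enzymes, Loxl1 gave -3.12 and Loxl4 2.87, and the other 3 stayed within 2-fold. Among fibril assembly genes 3 were lower and 4 higher: Postn (-5.43), Kera (-4.60) and Bgn (-1.18) against Tnxb (3.83), Fn1 (1.86), Dcn (1.64) and Comp (1.08). Of the 4 listed transcription factors, the tendon factor Scx gave -1.26, while Mkx gave 0.61, Egr1 1.4 and Egr2 3.41. Among turnover genes, the collagenase-activating protease Mmp14 gave -1.95 and the gelatinase Mmp2 -2.41. Ctsk (-0.11), Mrc2 (0.11) and Mmp13 (0.62) stayed within 2-fold. Collagen VI chains Col6a1, Col6a2 and Col6a3 lay between -0.37 and -0.02.

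The same list in NP-like cells had 8 of 53 genes at least 2-fold lower and 9 at least 2-fold higher (2.91% and 15.2% of all genes were), with a median of 0.24 against 0.36 over all genes. The folding group there had 1 of 13 lower and 0 higher (median -0.33), and Serpinh1 gave -0.96. In chondrocyte-like cells 13 of 57 were lower and 10 higher (6.15% and 25.5% of all genes were), with a median of -0.21 against 0.44. The hypertrophic class had 6 of 53 lower and 11 higher (5.05% and 23.2% of all genes were), with a median of 0.08 against 0.37.

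**Figure D5:**
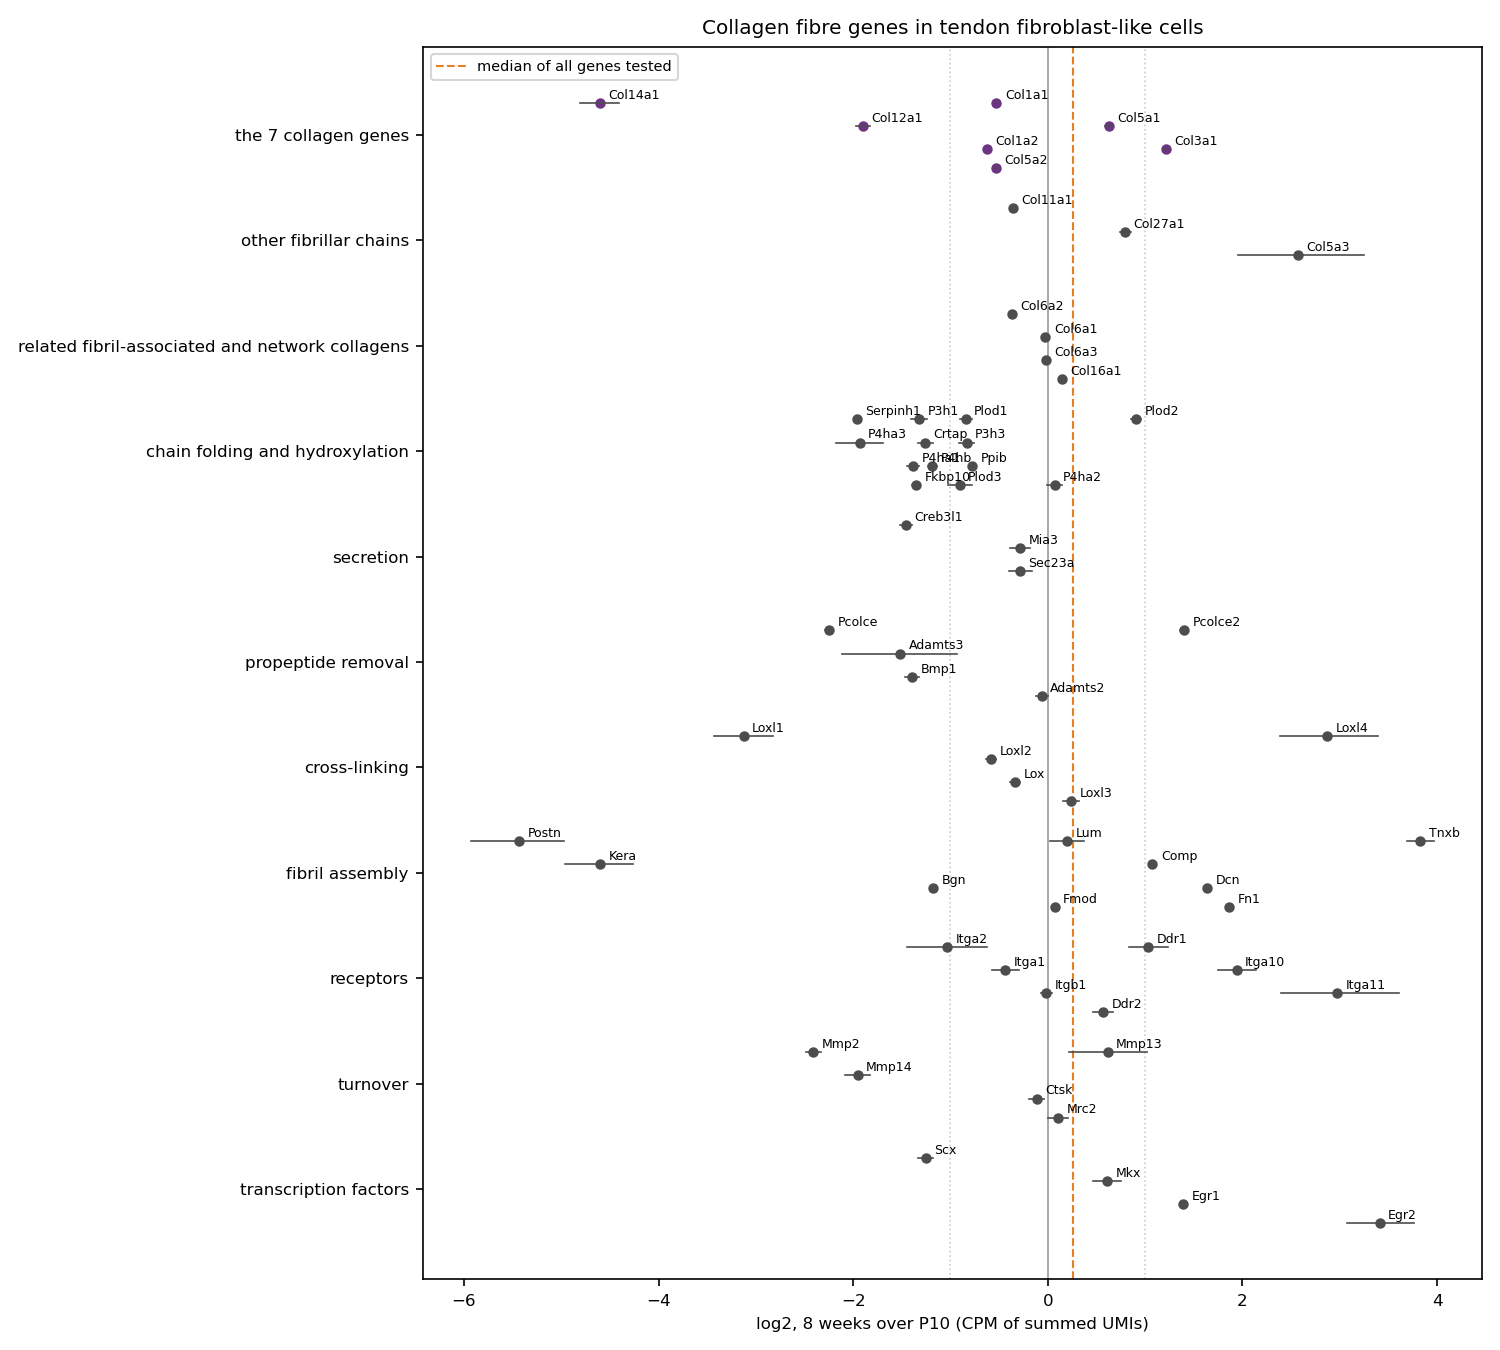
Log2 ratio of CPM at 8 weeks over P10 in tendon fibroblast-like cells for the 7 collagen genes (top row) and the collagen fibre list by step; lines are exact 95% counting intervals, dotted lines mark 2-fold and the dashed line the median of all genes. Folding and hydroxylation genes lie mostly left of 0, and fibril assembly genes spread from -5.43 to 3.83.

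The 7 genes were compared by Pearson's r of log2(CPM + 10) across 20 groups of at least 50 cells. A group is a class or unnamed cluster at an age, and r is a description over groups that share 2 libraries. Cells carrying markers of another class were kept. Without them, Col1a1 at P10 went from 5261 to 247 CPM in neutrophil-like and from 4532 to 232 CPM in macrophage-like cells. How far r depends on such cells was not tested. Col1a1 and Col1a2 were most alike (r = 0.98), and Col5a2 lay at 0.90 with Col1a2 and 0.85 with Col5a1. Col12a1 stood apart, with r between 0.09 (Col5a1) and 0.37 (Col14a1). The nearest other genes were Fkbp7, Serpinf1, Dcn, Creb3l1 and Tnmd for Col1a1 (0.88 to 0.83), and Dcn, Creb3l1, Fkbp7, Serpinf1 and Twist1 for Col1a2 (0.89 to 0.83). For Col3a1 they were Fstl1, Igfbp5, Antxr1, Loxl1 and Fndc1 (0.86 to 0.78), for Col5a1 Fkbp7, Pcolce, Adamts2, Antxr1 and Fndc1 (0.91 to 0.84), and for Col5a2 Fkbp7, Dcn, Fndc1, Fbln1 and Slc4a4 (0.89 to 0.82). Those nearest to Col12a1 were Islr, C1qtnf6, Srpx, P3h1 and Capn6 (0.87 to 0.80), and to Col14a1 Mfap4, Ogn, Kera, Crabp2 and Mcrip1 (0.85 to 0.79).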

How the data were processed

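Single-cell RNA libraries of whole discs were made on a droplet platform, per the labels. Per the submitters' processing notes, Cell Ranger 3.1.0 and Seurat 3 were used and the build was mm10 (GRCm38); roles are not stated there. The deposited gene matrices hold raw UMI counts made by the authors, 1 per age, over 31053 genes. A second deposited matrix per age holds UMI counts of exogenous sequences, of which WPRE4 was used. Names of cells and genes (other, text) come in separate deposited lists.

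Here, cells were kept from 500 genes and 1000 UMIs upwards if no more than 15% of UMIs were mitochondrial (6481 of 7597 barcodes at 8 weeks, 6999 of 7690 at P10), and Scrublet removed 139 cells at 8 weeks and 0 at P10. The libraries share 12 barcodes, of which 10 were kept in both. Matrices held 115097999 UMIs at 8 weeks and 143203550 at P10. Scanpy 1.11.5 clustered both libraries together (2000 variable genes without collagens, 30 components, 15 neighbours, Leiden resolution 1). A class needed 4 markers, each 2-fold above the other cells and in 25% of the cluster, or 10 of 13 chondrocyte markers in 50% of cells. Classes with at least 20 cells are given.

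Summed UMIs give CPM with exact Poisson intervals, shares have exact Clopper-Pearson intervals, and log2 ratios have exact conditional binomial intervals, checked on simulated counts. A gene entered a ratio once its sums of both ages held 100 UMIs, and counts as past the fold from 2-fold on. A cell carries markers of another class when these sum to at least 10 UMIs and reach 10% of that class's level. Only markers under a 20th of that level in the cell's own class were used. In some pairs of classes 0 markers were left, among them mural markers in endothelial-like and chondrocyte markers in neutrophil-like cells. The members, lists and contrasts were chosen with earlier results of these data known, and the naming limits and the 10% condition after the data were seen. The text names the 7 members, genes of the pathway list, the 5 leading genes of unnamed clusters and the 5 genes most like each member among those with at least 1000 UMIs. The alternatives were other clusterings, filters, doublet limits, scalings, gene minimums and folds. There are no replicates, so p-values were not computed, and the labelled samples are not said to be separate animals.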

Additional observations from a re-analysis of the deposited data

Results flagged for a closer look

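Opposite differences between ages in 2 classes of at least 100 cells brought 3 genes here. In none was the difference between classes itself tested, since each age is 1 library. Col3a1 had log2 ratios of 8 weeks over P10 of 1.56 in endothelial-like cells and 1.22 in the tendon fibroblast-like class, and of -3.25 in chondrocyte-like, -1.75 in hypertrophic chondrocyte-like and -1.67 in NP-like cells. For Col1a1 they were 2.70 in endothelial-like and -1.66 in chondrocyte-like cells. Col1a2 gave 2.18 in endothelial-like cells, -1.27 in chondrocyte-like and -1.48 in NP-like cells. Leaving out cells with foreign markers, a step that used 0 mural markers in endothelial-like cells, gave other values. The endothelial-like values were 0.48 for Col1a1, 0.24 for Col1a2 and 1.03 for Col3a1. In NP-like cells Col3a1 then had -0.08 and Col1a2 -0.25, and both genes are read as at or near background there. The chondrocyte-like class gave -1.16 for Col1a1, -0.88 for Col1a2 and -3.15 for Col3a1, the hypertrophic class -2.71 for Col3a1, and the tendon fibroblast-like class 1.22 for Col3a1.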

How the results depend on the processing

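Leaving out a replicate was not possible, and no paired analysis was possible because the cells of an age are not mapped to its 4 samples. Of the 14 counts of members past a fold, 140 of 176 recomputed values stayed within 1.5 times the value in the report and 36 did not; the cause was not tested. Of the 25 age ratios of at least 2-fold, 244 of 254 recomputed ratios kept their direction and 219 were still at least 2-fold.

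In tendon fibroblast-like cells, 4 members were lower and 0 higher at Leiden resolution 0.5, 0 were higher with ratios centred on the median gene or with clusters named from 3 markers or 8 chondrocyte markers (an alternative chosen after seeing the data), and 2 were higher at 1.5-fold. In NP-like cells, 1 member was lower with a Scrublet limit of 0.25, with cells thinned to 2000 UMIs (where fewer members reach the minimum) or without cells reaching 10% of another class's marker level (also chosen after seeing the data), and 0 without all cells holding 10 UMIs of other markers, a limit that takes out 47.1% of NP-like cells of 8 weeks and 70.3% of those of P10. In chondrocyte-like cells, 3 were lower without those cells of 10 other UMIs, and 1 was higher at resolution 0.5 or with separate clustering.

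Hypertrophic chondrocyte-like counts varied most. There, 0 members were lower at resolution 2, with separate clustering or with collagens among the variable genes, and 1 with the Scrublet limit, without cells of 10 other UMIs, thinned, or with the looser naming. Higher members numbered 5 at resolution 2 and with separate clustering, 4 with collagens among the variable genes, 3 with the Scrublet limit, 2 without cells of 10 other UMIs, thinned or at 1.5-fold, and 1 without cells at 10% of another class's level or with the looser naming. In endothelial-like cells, 1 was lower with separate clustering, without other-marker cells by either definition, with centred ratios, with no gene minimum or at 1.5-fold, and 1 was higher without other-marker cells by either definition.

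Direction turned for Col1a2 in NP-like cells (0.44 with the Scrublet limit) and for Col3a1 there (0.061 with it, 0.52 without cells of 10 other UMIs). In hypertrophic chondrocyte-like cells it turned for Col3a1 (2.37 at resolution 2, 3.71 with separate clustering, 0.59 with collagens included) and Col5a2 (2.47, 3.73, 2.22, and 0.089 with the looser naming). The Col1a1 to Col1a2 ratio in NP-like cells ran from 2.86 to 4.29 at 8 weeks and from 1.46 to 3.92 at P10. In connective fibroblast-like cells, separate clustering and leaving out cells of 10 other UMIs left under 20 cells at 8 weeks and gave no value, and at resolution 0.5 no hypertrophic class was found.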
